A study of Mus musculus with 30 samples.

Results

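The response of kidneys without p53 to aristolochic acid I (AAI) is described here from 10 of the 30 arrays of the series, which are the 5 kidneys of *Trp53(-/-)* mice given AAI and the 5 kidneys of *Trp53(-/-)* mice given water. They were chosen by genotype and treatment alone. The mice were male C57BL/6 animals of 9 to 11 weeks. AAI was injected into the peritoneum daily for 6 days at 3.5 mg/kg bw, control mice were injected with water, and the kidneys were taken 24 h after the last injection. *Trp53(-/-)* mice carry a neomycin cassette in place of part of *Trp53* in every cell, make no p53 protein and develop tumours, mostly lymphomas, within months of birth. Both *Trp53(-/-)* groups share this allele, so a comparison between them measures AAI in its presence. Kidneys of *Trp53(+/+)* mice, which carry both functional copies (5 with AAI, 5 with water), show where the response differs without p53. Kidneys of *Trp53(+/-)* mice, which carry 1 functional copy (5 with AAI, 5 with water), are set beside them as values only. RNA of a portion of kidney tissue was amplified, labelled and hybridised to Clariom S mouse arrays, 1 array per animal.

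AAI is a nitro-aromatic acid of *Aristolochia* plants. It reaches the proximal tubule through organic anion transporters, is reduced there to a reactive nitrenium ion that binds purines in DNA, and leaves injured tubules, inflammation and interstitial fibrosis. DNA damage stabilises p53, a transcription factor that switches on genes of cell cycle arrest (*Cdkn1a*, encoding p21), of its own turnover (*Mdm2*) and of cell death. Through p21 and the retinoblastoma family, p53 also keeps genes of DNA replication and mitosis switched off. Repair of an injured tubule itself requires surviving cells to lose part of their specialised functions and to divide.

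Values are log2 signals, where 1 unit stands for a doubling, and signals of different genes are not comparable with each other. A gene was called when its mean differed between AAI and water at least 2-fold with an adjusted p under 0.05 (limma, Benjamini-Hochberg over 22139 transcript clusters), and "rose" and "fell" are used of called genes alone. The number of arrays, 5 per group, limits the precision, and the median SD between replicates was 0.208 with AAI and 0.205 with water. The tissue label was checked against *Umod* of the thick ascending limb (12.01 to 12.30 in the controls), *Slc12a3* of the distal tubule (9.82 to 10.18) and *Slc34a1*, the phosphate carrier of the proximal tubule (12.28 to 12.38), each bright in every control. *Trp53* was not analysed here as a transcript. The methods and the sample titles do not give the batch of single samples, but the study marks all 10 kidneys as 1 cDNA batch. In 3 of them fat cell markers were raised (AAI replicates 1 and 5, water replicate 4), and counts without these 3 arrays, a choice made after seeing the data, are given where they differ by over 1.5 times or lose a call.

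In total, 1363 of the 22139 clusters were called in *Trp53(-/-)* kidneys, which is 6.16%, with 737 higher after AAI (3.33%) and 626 lower (2.83%). The groups did not overlap for 1291 of these, and over all clusters they did not overlap for 4008 (18.1%). Of the 1363, 1255 carry a gene symbol. The changes were larger downwards than upwards, since 200 clusters fell and 107 rose at least 4-fold, and 43 fell and 20 rose at least 8-fold. Over all clusters the median log2 change was -0.005. In a principal component analysis, 59.7% of the variance lay on component 1, which placed the AAI arrays between 31.83 and 46.59 and the controls between -37.68 and -44.72. Without the 3 arrays with raised fat cell markers, 1493 clusters were called (863 higher, 630 lower), 1293 of them among the 1363.

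**Figure D1:**
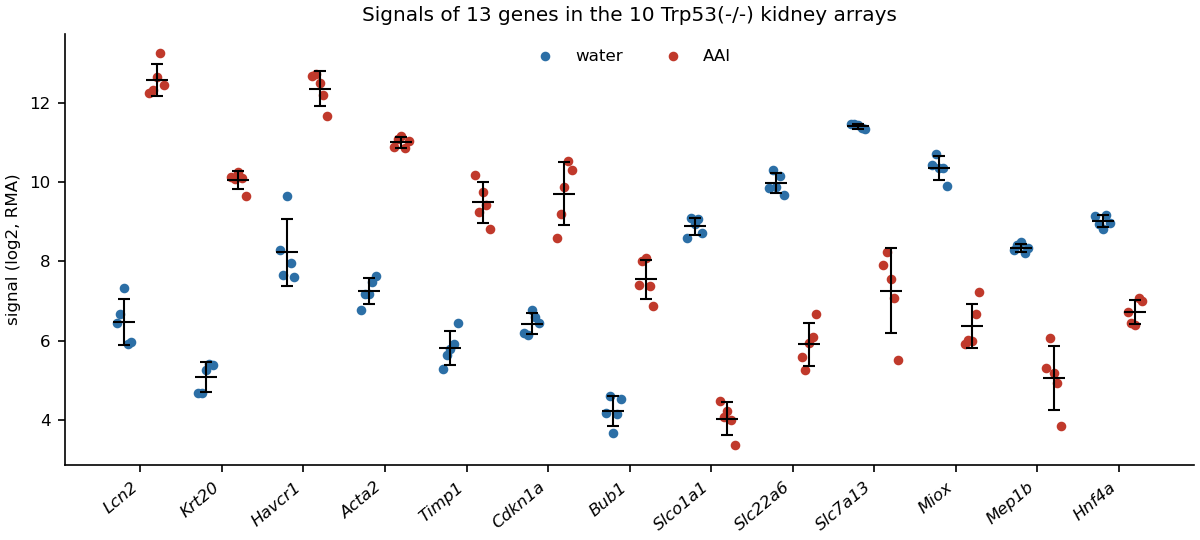
Log2 signal of 13 genes in each *Trp53(-/-)* array, water in blue and AAI in red, with the mean of 5 arrays as a black line. *Lcn2* lies between 5.92 and 7.34 with water and between 12.23 and 13.24 with AAI, while *Slco1a1* lies between 8.60 and 9.09 with water and between 3.37 and 4.49 with AAI.

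Genes of tubular injury held the 3 largest increases. *Lcn2*, encoding the secreted iron-siderophore binder NGAL, had signals of 6.45, 6.67, 7.34, 5.92 and 5.97 in control replicates 1 to 5 and of 12.23, 12.31, 12.65, 13.24 and 12.44 in AAI replicates 1 to 5. Every AAI array was far above every control, a log2 change of 6.11 ± 0.34 (SE) or 68.9-fold (adjusted p = 2.26e-14, limma). *Krt20*, an epithelial keratin of injured tubules, went from 4.68, 4.68, 5.27, 5.42 and 5.39 to 10.12, 10.08, 10.27, 10.10 and 9.65 (4.96 ± 0.38 SE, adjusted p = 1.36e-11). *Havcr1*, encoding KIM-1, a phagocytic receptor of damaged proximal tubule cells, had signals of 8.30, 7.66, 9.65, 7.95 and 7.60 with water and 12.67, 12.72, 12.50, 12.19 and 11.66 with AAI. Control replicate 3 was higher than the other controls, and the groups still did not overlap (4.12 ± 0.61 SE, adjusted p = 2.40e-06). Of 17 injury markers 10 rose and none fell, with a median log2 change of 1.53 against -0.005 over all genes. The others were the hyaluronan receptor *Cd44* (3.15), *Clu*, *Krt18*, *Tnfrsf12a*, *Vim*, *Plaur* and the progenitor factor *Sox9* (1.24).

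Cytoskeletal and barrier genes of the epithelium changed with them. Of 23 keratins, annexins and S100 proteins 9 rose and 1, *Anxa13*, fell. The calcium-binding *S100a6* rose by 3.62 ± 0.43 (SE) and *Anxa3* by 2.61 ± 0.24. *S100a4*, named for fibroblasts but also made by other migrating cells, went from 6.26 to 6.58 in the controls to 8.70 to 9.37 with AAI. Among 23 claudins and junction genes 5 rose and 1 fell. *Cldn2*, which forms the cation-permeable junction of the proximal tubule, fell by 1.24, whereas *Cldn1*, *Cldn4* and *Cldn7*, which tighten junctions, rose by 1.76, 1.44 and 1.42. *Sprr1a*, a cornified envelope protein, rose by 3.44 ± 0.46, and its AAI signals of 8.50 to 8.92 were all above the controls at 5.18 to 5.49. Growth factors went both ways. *Hgf*, the hepatocyte growth factor, rose by 2.09 ± 0.25, and *Egf*, made by the distal tubule, fell by 2.14 ± 0.33, with AAI replicate 1 lowest at 5.34 and the controls at 8.58 to 8.99.

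Proximal tubule markers fell almost as a block. Of 27, 22 fell and none rose, with a median log2 change of -2.45, and all 27 had an adjusted p under 0.05 in that direction. The myo-inositol oxygenase *Miox* had signals of 10.43, 10.72, 10.35, 10.36 and 9.89 with water and of 5.93, 6.03, 6.01, 6.66 and 7.22 with AAI. No array of one group reached the other, and AAI replicates 4 and 5 had the highest AAI signals (-3.98 ± 0.33 SE, adjusted p = 6.20e-11). *Inmt*, an amine methyltransferase, fell by 3.84 ± 0.27, the brush border protease *Mep1b* by 3.27 ± 0.29 and the peptidase *Ace*, the angiotensin-converting enzyme, by 2.86 ± 0.30. *Slc34a1* went from 12.28 to 12.38 down to 9.19 to 10.62 (-2.45 ± 0.24 SE). In a piece of whole tissue fewer proximal tubule cells and less RNA per cell cannot be told apart.

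Transcription factors that maintain the tubule fell too. *Hnf4a*, which drives proximal tubule differentiation, had signals of 9.15, 8.94, 8.81, 9.17 and 8.98 with water and 6.73, 6.46, 6.41, 7.07 and 7.0 with AAI, a 4.84-fold decrease without overlap. Its paralogue *Hnf4g* fell by 2.29 ± 0.21, the bile acid receptor *Nr1h4* by 1.81 ± 0.22 and *Ppara*, the receptor that governs fatty acid breakdown, by 1.48 ± 0.23. Of 20 nephron transcription factors 5 fell and none rose, and their median log2 change was -0.06. The motif spelled CAAAGTCCA, bound by HNF4 proteins, was found on either strand of the 250 bases before the start in 1 of 22 proximal tubule markers with a promoter sequence, against 0.523% of 15691 genes on the array. The HNF1 motif TTAATNATT was also found in 1 of 22, against 1.48%.

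The transporters that move organic anions and cations, among them those that carry AAI into the tubule cell, held the 3 largest decreases. Of 26, 19 fell and none rose, with a median of -2.2. *Slco1a1*, an organic anion transporter of the brush border, had signals of 8.60, 9.09, 8.94, 9.08 and 8.71 with water and 4.49, 4.08, 4.23, 4.01 and 3.37 with AAI, which is 28.8-fold lower (-4.85 ± 0.35 SE, adjusted p = 4.14e-12). *Slc22a6*, encoding OAT1, which takes up organic anions from the blood, went from 9.85, 10.31, 9.88, 10.15 and 9.68 to 5.58, 5.27, 5.94, 6.09 and 6.68 (-4.06 ± 0.22 SE, adjusted p = 2.26e-14). Every AAI array was below every control, and AAI replicate 5 had the highest AAI signal. *Slc22a30* and *Slc22a28* fell by 4.71 and 4.66, but these belong to a cluster of near-identical genes on which probes may cross-hybridise. Efflux pumps did not share 1 direction. *Abcg2* and *Abcc2*, pumps of the brush border, fell by 1.63 ± 0.12 and 1.27 ± 0.16, and *Abcb1b*, a P-glycoprotein, rose by 1.11 ± 0.27, a call lost without control replicate 3. They were the called ones of 9 pumps.

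Carriers of nutrients and ions followed the same course, with 21 of 27 lower and none higher (median -1.64). *Slc7a13*, a cystine and aspartate carrier of the late proximal tubule, was steady in the controls, at 11.47, 11.47, 11.43, 11.36 and 11.33, and scattered with AAI, at 7.91, 8.24, 7.55, 7.08 and 5.51. *Slc7a13* was lowest in AAI replicate 5 (-4.15 ± 0.36 SE, adjusted p = 9.49e-11), the array in which *Miox* was highest. The lactate carrier *Slc5a8* likewise lay at 8.63 to 9.06 with water and had its lowest AAI signal, 3.34, in replicate 5 (-3.67 ± 0.35 SE). *Slc3a1*, the cystine transporter subunit, fell by 2.84 ± 0.21. In the segments behind the proximal tubule, of 28 distal nephron and collecting duct markers 2 rose, the water channel *Aqp2* (1.23 ± 0.25 SE) and *Cldn16* (1.11 ± 0.19, not called without AAI replicate 3), and 2 fell, *Egf* and the calcium buffer *Pvalb* (-1.95 ± 0.23). Control replicate 1 had an *Aqp2* signal of 9.31, above the 9.29 of AAI replicate 1, so the groups overlapped. Of 9 podocyte markers none was called (1 without AAI replicate 5 or without the 3 arrays with raised fat cell markers), and 5 were higher at an adjusted p under 0.05 by less than 2-fold, among them *Cd2ap* (0.96 ± 0.11) and *Podxl* (0.79 ± 0.16). Of 15 endothelial markers 4 rose, *Emcn* (1.29), *Eng* (1.22), *Cdh5* (1.15) and *Pecam1* (1.0), the latter not called without AAI replicate 1 or 2 or control replicate 1 or 2.

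Genes that distinguish male from female mouse kidneys fell in both classes. Of 14 genes known to depend on androgen in the male kidney 10 fell, with a median of -2.62, led by *Slco1a1* and *Slc22a30* and including the P450 *Cyp2j13*, which went from 9.39 to 9.88 down to 5.93 to 6.51 (-3.35 ± 0.22 SE). Of 4 female-predominant genes 3 fell, or 1 by the methods' plain test after Benjamini-Hochberg adjustment. *Slc7a12*, a carrier of the late proximal tubule, fell by 1.58 ± 0.49, but its controls ranged from 5.54 to 7.52 and overlapped with AAI replicate 4 at 6.18. It was not called without AAI replicate 5, without control replicate 5 or without the 3 arrays with raised fat cell markers. Most members of both classes are expressed in the proximal tubule.

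Metabolic genes of the tubule fell in part. Of 32 genes of fatty acid oxidation and peroxisomes 14 fell and none rose (median -0.89). *Eci3*, a peroxisomal isomerase of unsaturated fatty acids, had signals of 9.69, 10.25, 9.84, 10.15 and 9.80 with water and 5.92, 6.37, 5.71, 5.97 and 6.30 with AAI (-3.89 ± 0.24 SE, adjusted p = 2.11e-13). *Acox2* fell by 2.65 ± 0.20 and *Ehhadh* by 2.58 ± 0.31, both enzymes of peroxisomal oxidation. *Ehhadh* was higher in AAI replicate 5 (8.14) than in the other AAI arrays (6.38 to 7.23). Of 11 genes on the path from tryptophan to NAD 6 fell, among them the aminotransferase *Aadat* (-3.05 ± 0.30), the monooxygenase *Kmo* (-2.63 ± 0.23) and *Acmsd* (-2.27 ± 0.25), which diverts an intermediate away from NAD. Of 16 genes of gluconeogenesis and the citrate cycle 6 fell, with *Fbp1*, a gluconeogenic phosphatase, at -2.38 ± 0.22 and *G6pc*, which releases free glucose, at -2.03 ± 0.38.

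The respiratory chain stood apart from these enzymes, since none of 27 subunits was called. Still, 14 were lower at an adjusted p under 0.05 (median -0.36 over the list). Examples were *Ndufs1* of complex I at -0.71 ± 0.14 and *Uqcrc1* of complex III at -0.55 ± 0.10. *Cox6c* of complex IV was at -0.02 ± 0.08. Of 24 genes of glycolysis and of the hypoxia factor HIF the glucose carrier *Slc2a1* rose by 1.09 ± 0.16 (not called without AAI replicate 3 or control replicate 3) and the isomerase *Tpi1* fell by 1.19 ± 0.14. The number that rose was 2 without AAI replicate 5, control replicate 5 or the 3 arrays with raised fat cell markers. Of 11 genes of cholesterol and lipid handling *Hmgcs1* and *Idi1*, which make sterol precursors, fell by 1.79 ± 0.15 and 1.35 ± 0.23. The fatty acid receptor *Cd36* fell by 1.26 ± 0.28, with AAI replicate 5 at 10.55 among the controls (10.28 to 10.71).

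Many enzymes that metabolise foreign compounds fell. Of 24 cytochrome P450 genes 15 fell and 1 rose, with a median of -2.24, and of 23 phase II conjugating enzymes 12 fell and none rose (median -1.2). *Cyp4b1*, a P450 of the proximal tubule, went from 11.42 to 11.64 down to 7.62 to 8.66 (-3.27 ± 0.27 SE). *Ugt2b38* fell by 3.34 ± 0.28 and *Ugt3a1* by 3.25 ± 0.25, both glycosyltransferases, and the close paralogues among the Ugt2b, Cyp4a and Cyp2j genes may share probes. On a list of 13 genes drawn up for the activation and detoxification of AAI, *Nqo1*, encoding the main reductase that activates AAI, was not called. Its signals were 6.29, 6.91, 6.93, 7.10 and 7.04 with water and 6.26, 5.95, 6.83, 7.52 and 6.51 with AAI, so that the groups overlapped (-0.24 ± 0.24 SE, adjusted p = 0.532). *Cyp1a1* and *Cyp1a2*, which demethylate AAI to a detoxified product, were dim in every array (3.38 to 4.42 and 2.77 to 3.26) and had changes of 0.00 ± 0.16 and 0.02 ± 0.14. *Cyb5a*, the electron donor of P450 enzymes, fell by 1.70 ± 0.12, the sulphotransferase *Sult1d1* by 1.32 ± 0.25 and the acetyltransferase *Nat2* by 1.27 ± 0.19. *Ptgs2*, a cyclooxygenase that can also activate AAI, rose by 1.52 ± 0.26 and *Cyp1b1* by 1.03 ± 0.15, although *Cyp1b1* was not called without AAI replicate 3 or control replicate 2 or 4, after quantile normalisation or after centring each array on its median. Of 20 target genes of the oxidant sensor Nrf2 none rose (1 without the 3 arrays with raised fat cell markers), and *Me1* and *Gclm*, which supply NADPH and glutathione, fell by 1.61 ± 0.15 and 1.25 ± 0.16. The median over the list was 0.22. At an adjusted p under 0.05 alone 5 were higher, among them *Gclc* (0.92 ± 0.21) and *Abcc1* (0.90 ± 0.16), and 4 were lower.

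**Figure D2:**
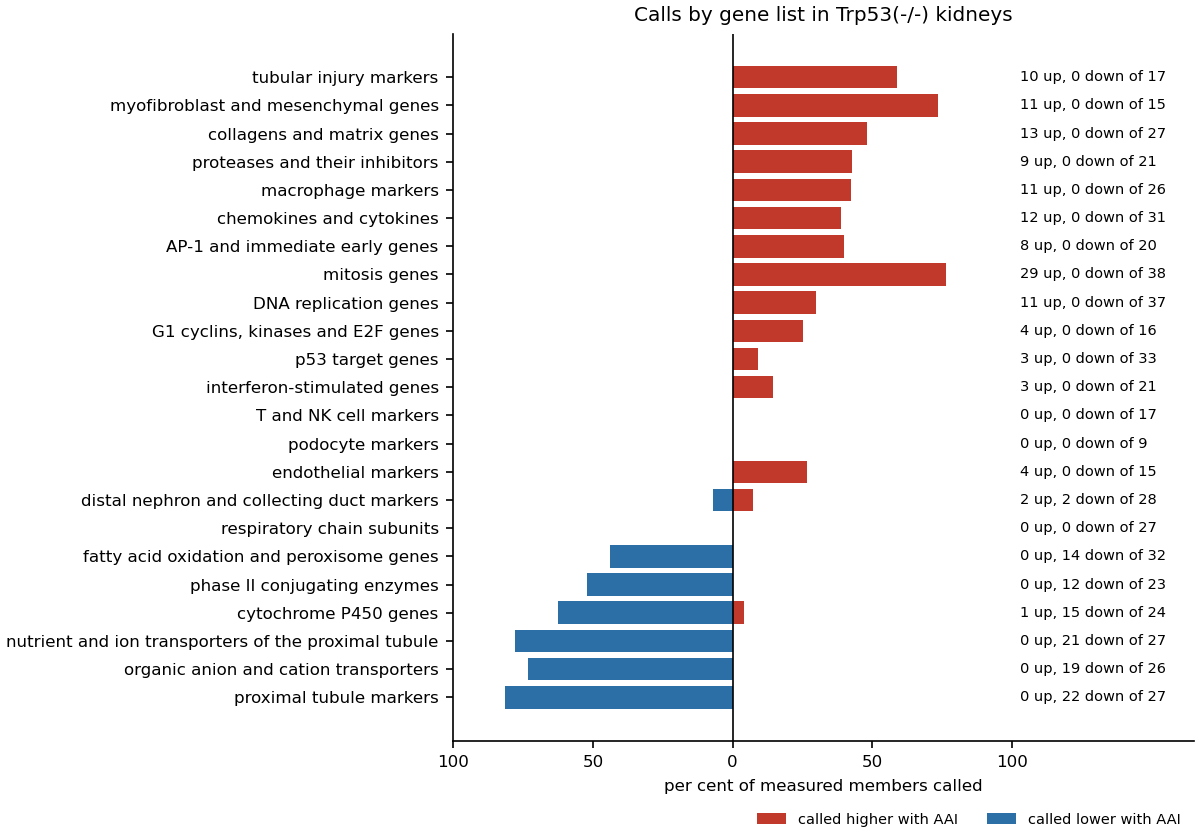
Share of the measured members of 23 gene lists that were called in *Trp53(-/-)* kidneys, higher with AAI to the right and lower to the left, in per cent. Mitosis genes (29 of 38 higher) and proximal tubule markers (22 of 27 lower) stand at opposite ends, while no T and NK cell marker and no respiratory chain subunit was called.

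Genes of cell division rose in kidneys without p53. Of 38 mitosis genes 29 rose and none fell (median 1.56), and 36 were higher at an adjusted p under 0.05. *Bub1*, a kinase of the spindle checkpoint, had signals of 4.18, 4.61, 3.67, 4.16 and 4.53 with water and 7.40, 8.01, 8.08, 7.37 and 6.88 with AAI, 9.97-fold higher (3.32 ± 0.33 SE, adjusted p = 1.48e-09). *Mki67*, encoding the proliferation marker Ki-67, went from 5.95, 6.10, 6.05, 6.04 and 6.12 to 9.15, 9.63, 9.44, 8.94 and 8.28 (3.03 ± 0.30 SE, adjusted p = 1.33e-09). For both genes AAI replicate 5 was the lowest AAI array and was still far above the controls. *Bub1b*, its checkpoint partner, rose by 3.01 ± 0.27, *Ndc80* of the kinetochore by 2.66 ± 0.31, the mitotic kinase *Cdk1* by 2.35 ± 0.23 and the topoisomerase *Top2a* by 2.27 ± 0.24. *Espl1*, encoding separase, was among the 9 not called, at 0.12 ± 0.14. The mean signal over the list ran from 5.41 to 5.6 in the controls and from 6.73 to 7.50 with AAI, highest in AAI replicates 2 and 3.

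Genes of S phase rose as well. Of 37 DNA replication genes 11 rose and none fell (median 0.68). *Rrm1*, a subunit of ribonucleotide reductase, went from 5.18, 5.13, 5.09, 5.30 and 5.24 to 7.69, 7.89, 7.48, 7.22 and 6.87 (2.24 ± 0.24 SE). The primase *Prim1* rose by 1.87 ± 0.25, the origin subunit *Orc6* by 1.62 ± 0.17 and the helicase subunit *Mcm4* by 1.53 ± 0.26. AAI replicates 4 and 5 were the lowest of the 5 for *Prim1* (7.32 and 7.41 against 7.83 to 8.42) and for *Mcm4* (5.28 and 5.14 against 6.10 to 6.39). Among 16 G1 cyclins, kinases and E2F genes 4 rose, and 13 were higher at an adjusted p under 0.05. *E2f8*, an E2F repressor that is itself expressed in S phase, rose by 2.83 ± 0.29, with AAI replicate 5 at 5.87 and the others at 6.83 to 7.44. *Ccne2*, cyclin E2, rose by 1.46 ± 0.22, *Rbl1*, a retinoblastoma relative, by 1.11 ± 0.20 and *Cdk2* by 1.05 ± 0.16. *Rbl1* was not called without AAI replicate 2, nor *Cdk2* without AAI replicate 4 or control replicate 1 or 2. *Ccnd2*, *Cdk4*, *Cdk6* and *Ccnd3*, which act earlier in G1, had changes of 0.52 ± 0.13, 0.31 ± 0.10, 0.30 ± 0.18 and 0.06 ± 0.10. *E2f1* was at 0.35 ± 0.17 (adjusted p = 0.143, limma) and *E2f3* at 0.88 ± 0.16.

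Promoters of dividing-cell genes are known to carry CCAAT boxes, bound by NF-Y, and the motif TTTGAA (CHR), through which the genes are kept off outside the late cell cycle. Both strands of the 250 bases before the start were searched in RefSeq promoter sequences (GRCm38.p6). CCAAT was found in 24 of 32 mitosis genes that have a sequence (75.0%), against 39.2% of 15691 genes on the array and 33.8% of 32851 promoters. TTTGAA was found in 13 of 32 (40.6%), against 16.1% and 16.0%. Among the mitosis genes that rose 17 of 24 held CCAAT and 10 of 24 TTTGAA. Among those not called it was 7 of 8 and 3 of 8. The E2F motif (TTTCCCGC, TTTGGCGC or TTTCGCGC) was found in 7 of 30 DNA replication genes (23.3%), against 2.45% of genes on the array, but in only 1 of the 8 that rose, *Pola1*, and in 6 of the 22 not called. The AP-1 motif TGANTCA was found in 1 of 13 tubular injury markers with a sequence (7.69%), against 7.37% of genes on the array. A match is a match of letters only, and members without a sequence are left out of the shares. Stretches of 4 promoters are shown, 5′ to 3′ on the strand of the gene, for called genes that carry the motifs. Capitals mark the motif, and ATTGG and GCGCCAAA are CCAAT and TTTGGCGC read on the opposite strand.
*Bub1*, NF-Y, chr2:127831860-127831941, minus strand, CCAAT 42 to 38 bases before the start: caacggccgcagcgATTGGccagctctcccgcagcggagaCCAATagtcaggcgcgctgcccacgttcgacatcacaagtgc
*Mki67*, CHR, chr7:135716432-135716517, minus strand, the TTTGAA nearer the start 98 to 93 bases before it: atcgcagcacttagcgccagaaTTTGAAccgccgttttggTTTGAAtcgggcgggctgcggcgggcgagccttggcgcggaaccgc
*Cdk1*, CHR, chr10:69352913-69352967, minus strand, 15 to 10 bases before the start: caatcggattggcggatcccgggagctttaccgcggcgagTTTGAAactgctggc
*Pola1*, E2F, chrX:93632246-93632333, minus strand, 138 to 131 bases before the start: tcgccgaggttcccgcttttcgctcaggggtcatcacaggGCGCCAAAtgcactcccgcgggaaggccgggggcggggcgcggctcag
*Bub1*, *Mki67*, *Cdk1* and *Pola1*, the catalytic subunit of DNA polymerase alpha, rose by 3.32, 3.03, 2.35 and 1.31 (log2) after AAI.

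The rise of mitosis genes was larger in *Trp53(-/-)* than in *Trp53(+/+)* kidneys for 35 of 38 genes, although the difference passed the test for none of them. The median log2 change was 1.56 without p53 and 0.99 with it, and 29 and 18 genes rose. The difference of the 2 effects was tested for every gene as an interaction in the same limma fit, and 18 of the 38 had an unadjusted p under 0.05 but none an adjusted p under 0.05. Of all 737 genes that rose without p53, 413 had a larger change there than in *Trp53(+/+)* kidneys. Over all 22139 clusters, 1684 had an unadjusted p under 0.05 for the difference. Genes of a list were measured in the same animals and are not independent. For *Bub1* the AAI effect was 3.32 against 2.46, and for *Mki67* 3.03 against 2.43. DNA replication genes behaved alike, with 33 of 37 larger in *Trp53(-/-)* kidneys and 11 against 5 that rose (median 0.68 against 0.36), and no difference passed. Of 33 genes of homologous recombination and the Fanconi pathway 5 rose without p53 and 1 with it, and the difference passed the test for none. *Brca1*, a recombination factor, rose by 1.65 ± 0.18 (0.71 in *Trp53(+/+)*), and the helicase *Brip1*, *Rad51ap1* and *Fanci* by 1.34, 1.35 and 1.23. Without the 3 arrays with raised fat cell markers 8 of the 33 rose.

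**Figure D3:**
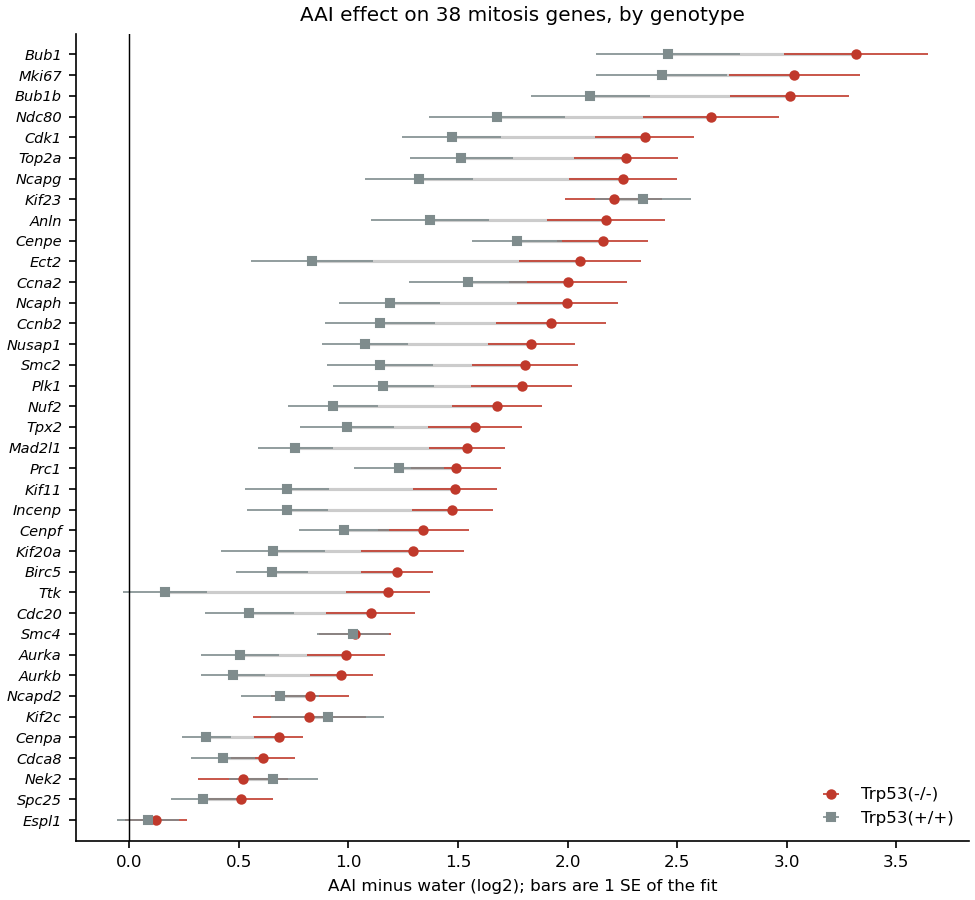
AAI minus water on the log2 scale for 38 mitosis genes in *Trp53(-/-)* (red circles) and *Trp53(+/+)* kidneys (grey squares), with bars of 1 SE of the fit. The red circle lies to the right of the grey square for 35 of 38 genes, by 0.86 for *Bub1*. The bars are apart for most genes, among them *Bub1* and *Ect2*, and overlap for others, among them *Smc4* and *Espl1*. The difference passed the test of the fit for none of the 38.

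A few genes did pass the test of the difference between genotypes, and the mitotic gene *Sgo1* was one of them. The change with AAI was unequal in the 2 genotypes for 23 of 22139 clusters (0.104%), against 1684 at an unadjusted p under 0.05. In 5 the change was more positive without p53. These 5 lie outside the naming rule and were chosen after their values were seen. *Sgo1*, which protects the cohesion of sister chromatids, had signals of 4.31, 3.88, 3.63, 3.95 and 4.19 with water and 6.12, 6.58, 6.69, 6.24 and 6.35 with AAI. It rose by 2.40, against 0.95 in *Trp53(+/+)* (difference 1.46 ± 0.27 SE, adjusted p = 0.0104, limma). *Hirip3*, a partner of a histone chaperone, rose by 1.23 against 0.19 (adjusted p = 0.0151). *Wdr76* was at 0.98 against -0.12 (adjusted p = 0.0113), *Psmc3ip*, a recombination cofactor, at 0.77 against -0.06 (adjusted p = 0.0303) and *Idh3a* of the citrate cycle at 0.22 against -0.62 (adjusted p = 0.0279). None of these 5 passed when the arrays of the compared genotypes were fitted alone, which left 16 genes, all with a more negative change without p53. With 2-fold required as well, 3 of the 5 and 17 of the 18 remained. The number with a more positive change was 3 without AAI replicate 1, control replicate 2 or control replicate 4 of the *Trp53(-/-)* mice, without *Trp53(+/+)* control replicate 5, or without the 3 arrays with raised fat cell markers, where *Hirip3* did not pass. The number with a more negative change was 28 without *Trp53(+/+)* AAI replicate 4 or *Trp53(+/+)* control replicate 1.

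Targets of p53 made up much of the other 18, in which the change was more negative without p53. Of 33 p53 target genes 3 rose in *Trp53(-/-)* kidneys and none fell (median 0.15), against 13 in *Trp53(+/+)* kidneys (median 0.86). Of the 33, 8 passed the test of the difference, on a list chosen with earlier results of these data known. *Ccng1*, cyclin G1, had signals of 7.69, 8.55, 8.18, 8.26 and 8.49 with water and 7.96, 7.68, 7.78, 7.68 and 8.21 with AAI. The groups overlapped, and the effect was -0.37 ± 0.19 (SE) against 1.63 in *Trp53(+/+)* kidneys (difference -2.0 ± 0.26 SE). *Mdm2*, the ubiquitin ligase that degrades p53, had signals of 8.30, 8.27, 8.19, 8.50 and 8.58 with water and 8.62, 8.88, 8.57, 8.30 and 8.48 with AAI. Its effect was 0.20 ± 0.17 against 1.80 (difference -1.60 ± 0.24 SE). *Eda2r*, a death receptor of the TNF family, was at 0.15 ± 0.22 against 2.52, *Trp53inp1*, a stress-induced partner of p53, at -0.19 ± 0.27 against 2.24 and *Zfp365*, a gene of genome stability, at 0.08 ± 0.17 against 2.05. The others were the death receptor *Tnfrsf10b* (0.16 against 1.36), the repair endonuclease *Ercc5* (0.05 against 1.04) and *Perp* of the desmosome (-0.22 against 0.89). *Perp* did not pass without the 3 arrays with raised fat cell markers. For *Trp53inp1* AAI replicates 4 and 5 lay at 6.55 and 6.40, above the other 3 AAI arrays (4.81 to 5.20) and above the controls (5.36 to 6.11).

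The p53 targets that rose without p53 were *Cdkn1a*, *Plk2* and *Btg2*. *Cdkn1a* had signals of 6.19, 6.15, 6.77, 6.61 and 6.44 with water and 8.60, 9.21, 9.88, 10.52 and 10.29 with AAI, 9.64-fold higher (3.27 ± 0.34 SE, adjusted p = 3.73e-09). Every AAI array was above every control, and replicate 1 was the lowest. In *Trp53(+/+)* kidneys it rose by 4.40, and the difference of -1.13 did not pass (adjusted p = 0.570). *Plk2*, a kinase of the centrosome, went from 5.99, 5.53, 6.16, 6.14 and 6.00 to 8.23, 8.40, 8.78, 7.98 and 8.05 (2.32 ± 0.26 SE, 3.27 in *Trp53(+/+)*), and *Btg2*, an antiproliferative factor, from 6.01 to 6.76 up to 7.50 to 8.27 (1.37 ± 0.19 SE, 2.02 in *Trp53(+/+)*). Neither difference passed (adjusted p = 0.528 and 0.554). *Apaf1* of the apoptosome, *Gtse1*, *Sesn1* and *Gadd45a* were higher by less than 2-fold (0.97, 0.71, 0.62 and 0.57) with an adjusted p under 0.05. *Bbc3* and *Pmaip1*, encoding the death proteins PUMA and NOXA, were at -0.05 ± 0.12 and 0.11 ± 0.19. Of 7 CDK inhibitors only *Cdkn1a* was called, and *Cdkn2c* was at 0.81 ± 0.14 (adjusted p = 4.05e-05). *Cdkn2a* was dim throughout (2.83 to 4.11).

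**Figure D4:**
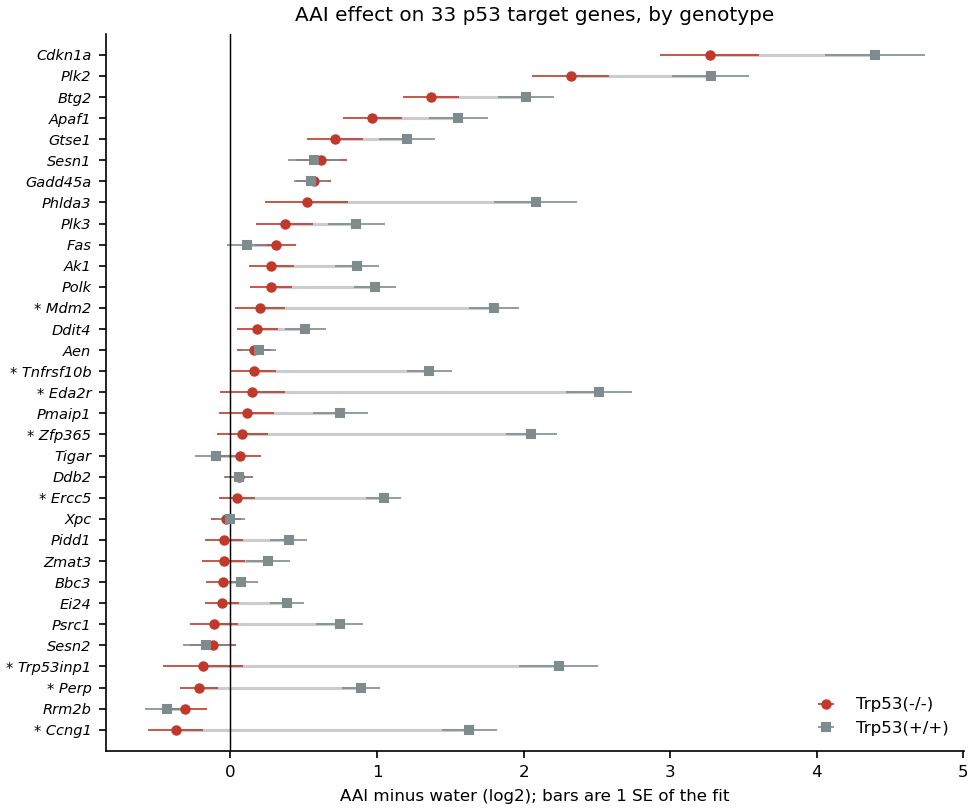
AAI minus water on the log2 scale for 33 p53 target genes in *Trp53(-/-)* (red circles) and *Trp53(+/+)* kidneys (grey squares), with bars of 1 SE of the fit and an asterisk where the difference passed an adjusted p of 0.05. *Cdkn1a* and *Plk2* are at the top in both genotypes, whereas *Ccng1*, *Trp53inp1* and *Mdm2* lie near 0 without p53 and between 1.63 and 2.24 with it.

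Of the genes with a more negative change without p53, several are on none of the p53 lists. *Ces2e*, a carboxylesterase, went from 6.56, 6.40, 6.40, 6.53 and 6.67 with water to 6.20, 5.64, 5.37, 5.96 and 6.04 with AAI, so that its arrays were lower without overlap (-0.67 ± 0.19 SE), against an effect of 2.21 in *Trp53(+/+)* kidneys. *1700007K13Rik* was at -0.13 ± 0.28 against 3.25, *Cox6b2*, a subunit of complex IV known from testis, at 0.80 ± 0.24 against 2.87 and the gelatinase *Mmp2* at 0.64 ± 0.20 against 2.19. *Arap2*, a regulator of small GTPases, was at -0.90 ± 0.11 against 0.21. *Ephx1*, an epoxide hydrolase of the AAI enzyme list, was at 0.37 ± 0.25 against 2.24 (adjusted p of the difference = 0.0104), and did not pass without the 3 arrays with raised fat cell markers. All *Trp53(+/+)* controls and 4 of the 5 *Trp53(+/+)* AAI kidneys were in the other cDNA batch than the *Trp53(-/-)* kidneys, so levels of the genotypes cannot be told apart from batch, while each effect is taken within its own genotype. Which *Trp53(+/+)* AAI array was in the second batch is not labelled, and a batch term under the 5 possible assignments is the same as leaving that array out. In *Trp53(+/-)* kidneys AAI and batch are the same split. Their values lay at 1.17 for *Ccng1*, 1.13 for *Mdm2*, 1.74 for *Eda2r*, 3.07 for *Cdkn1a* and 1.49 for *Bub1* and were not tested against those of *Trp53(-/-)* kidneys.

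For nearly all called genes the direction of the change was the same in both genotypes, which says nothing of its size. Of the 1363 called genes 1358 had the same sign in *Trp53(+/+)* kidneys, 1311 of them with an adjusted p under 0.05 there. Called in both genotypes were 563 that rose and 521 that fell, and no gene was called in opposite directions. The remaining 279 were called without p53 alone, and 2 of them passed the test of the difference. Across all clusters, which are not independent of each other, the effects of the genotypes had a Pearson correlation of 0.89.

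Genes of damage sensing other than p53 targets showed a mixed response. None of 16 nucleotide excision repair genes, which remove bulky adducts, was called (median -0.02). *Xpc* and *Ddb2*, which recognise adducts, were at -0.03 ± 0.10 and 0.06 ± 0.10, *Ercc1* was at 0.55 ± 0.12 and *Cetn2* at -0.76 ± 0.15. Some stress-induced transcription factors rose. Of 20 AP-1 and immediate early genes 8 rose and none fell (median 0.72). Of the AP-1 subunits *Jun* rose by 1.42 ± 0.16. The 12 genes not called included *Fos* (-0.02 ± 0.17), *Junb* (0.31 ± 0.11) and *Fosl2* (0.91 ± 0.15). *Egr1* went from 7.77, 7.41, 7.98, 7.56 and 7.67 to 10.52, 10.55, 10.55, 10.37 and 10.72 (2.86 ± 0.26 SE), *Klf6* rose by 2.00 ± 0.16, *Myc*, a driver of growth and division, by 1.92 ± 0.27 and *Atf3* by 1.88 ± 0.17. Of 23 genes of the unfolded protein and integrated stress response *Ddit3*, encoding CHOP, rose by 1.15 ± 0.17 and *Ppp1r15a*, encoding GADD34, by 1.18 ± 0.17.

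Some genes of cell death and survival were called. Of 21 Bcl2 family and caspase genes 2 rose (9.52%, against 3.33% of all clusters), both of them survival genes. *Bcl2a1a* went from 6.81 to 7.70 up to 9.28 to 10.43 (2.87 ± 0.29 SE), although it has near-identical copies, and *Birc3* rose by 1.08 ± 0.15. At an adjusted p under 0.05 alone 10 of the 21 were higher, including *Bcl2* (0.68), *Mcl1* (0.68), *Apaf1* (0.97) and *Bak1* (0.64), and *Bid* was lower (-0.83). Of 11 genes of necroptosis and pyroptosis, the inflammatory forms of cell death, 3 rose (27.3%, against 3.33% of all clusters). They were *Mlkl* (1.68 ± 0.24), which opens the membrane in necroptosis, *Casp4* (1.58 ± 0.15) and *Pycard* (1.10 ± 0.14), both of inflammasomes. *Pycard* was not called without control replicate 5. Of 17 ferroptosis and iron genes 17.6% were called, against 6.16% of all clusters. *Cp*, the ferroxidase ceruloplasmin, rose by 2.29 ± 0.20 and *Acsl4*, which loads membranes with oxidisable fatty acids, by 1.12 ± 0.15. The iron sensor *Aco1* fell by 1.07 ± 0.12, a call lost without control replicate 2 and without the 3 arrays with raised fat cell markers.

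Genes of innate inflammation rose, whereas lymphocyte markers, dim on average, gave no call. Of 31 chemokines and cytokines 12 rose and none fell (median 0.66). *Ccl2*, which attracts monocytes, had signals of 7.13, 7.07, 6.72, 7.21 and 6.96 with water and of 9.46 to 10.28 with AAI (2.87 ± 0.26 SE, adjusted p = 3.50e-10). *Csf1*, the growth factor of macrophages, rose by 3.09 ± 0.31. *Il6* went from 4.22, 3.41, 3.95, 3.67 and 3.43 to 6.65, 7.36, 6.92, 5.19 and 6.06 (2.70 ± 0.32 SE). AAI replicates 4 and 5 were the lowest AAI arrays for all 3 genes. The same held for macrophage markers, of which 11 of 26 rose and none fell (median 0.96). Their mean signal was 7.26, 7.32, 7.25, 6.67 and 6.80 in AAI replicates 1 to 5 and 5.69 to 6.08 in the controls. *Msr1*, a scavenger receptor, rose by 3.08 ± 0.25, *Ccr2*, the receptor of *Ccl2*, by 2.76 ± 0.40 and *Lyz2*, lysozyme, by 2.48 ± 0.28. *Ccr2* ranged from 6.61 to 9.02 with AAI and from 4.89 to 5.68 with water.

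Of 20 NF-kB subunits and feedback genes 5 rose, among them *Rela* and *Rel*, its transactivating subunits, by 1.31 ± 0.12 and 1.34 ± 0.16. Of 19 genes of the acute phase and of IL-6 signalling 7 rose. *Serpina3n*, a protease inhibitor, went from 5.00, 4.24, 3.87, 3.88 and 3.73 to 7.08, 7.28, 7.21, 7.57 and 7.99 (3.28 ± 0.29 SE), and the fibrinogen chains *Fgg* and *Fga* rose by 2.81 ± 0.28 and 2.02 ± 0.27. *Hp*, haptoglobin, was among the 7 (1.72 ± 0.60), but its AAI signals were 7.06, 4.57, 4.96, 4.52 and 8.18 and so highest in AAI replicates 1 and 5, the arrays with raised fat cell markers. Complement went both ways, with 5 of 16 higher, such as *Cfp*, properdin (1.70 ± 0.22), and 2 lower, *C8a* (-2.04 ± 0.23) and *Cfb* (-1.60 ± 0.17). Interferon-stimulated genes rose for 3 of 21, *Xaf1* (1.14), *Ifit3* (1.07) and *Isg15* (1.0), and 17 were higher at an adjusted p under 0.05 (median 0.67). AAI replicate 2 was the highest for all 3, and without it 1 of the 21 rose. None of 17 T and NK cell markers, 6 thymocyte markers, 10 B cell markers and 13 MHC class II and dendritic cell genes was called. Mean signals of T and NK cell markers were 4.72 to 5.05 with AAI and 4.78 to 4.90 with water, and those of thymocyte markers 5.06 to 5.20 and 5.09 to 5.41. Those of B cell markers were 4.32 to 4.57 and 4.47 to 4.77. The array medians were 5.88 to 5.99, and a change in such dim markers may be missed. The highest T and NK cell mean, 5.05, was that of AAI replicate 1. A part of lymphoid tissue in the results was not tested. *Cd3e* of the T cell receptor was at -0.05 ± 0.13 and *Rag2* of immature lymphocytes at -0.26 ± 0.15. Of 12 neutrophil markers *S100a8* rose by 1.5 ± 0.45, but AAI replicate 5 at 4.06 lay among the controls (3.29 to 4.45) and the other AAI arrays at 5.56 to 6.01. It was not called at an adjusted p under 0.01, and 2 of the 12 rose with array weights, without AAI replicate 5, control replicate 1 or control replicate 4, or without the 3 arrays with raised fat cell markers.

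Many genes of fibrosis rose. Of 15 myofibroblast and mesenchymal genes 11 rose and none fell (median 1.86), and of 27 collagens and matrix genes 13 rose (median 1.0). The other 14 were not called, among them the collagen I genes *Col1a1* (0.38 ± 0.11) and *Col1a2* (0.65 ± 0.15), whereas *Col3a1* rose by 2.36 ± 0.31. *Acta2*, smooth muscle actin, the mark of myofibroblasts, had signals of 6.77, 7.18, 7.18, 7.49 and 7.64 with water and 10.89, 11.08, 11.17, 10.85 and 11.03 with AAI (3.75 ± 0.33 SE, 13.5-fold, adjusted p = 1.57e-10). *Tagln*, transgelin, rose by 3.59 ± 0.27 and lay at 10.79 to 11.20 with AAI against 7.27 to 7.70. *Postn*, periostin, rose by 3.54 ± 0.31, *Fn1*, fibronectin, by 3.38 ± 0.26, *Lox*, which cross-links collagen, by 2.91 ± 0.26 and *Thbs1*, which activates TGF-beta, by 2.82 ± 0.23. *Lox* was highest in AAI replicate 4 (8.48 against 6.83 to 7.68 in the others). Proteases and inhibitors rose alongside, 9 of 21, with none lower. *Timp1*, the inhibitor of matrix metalloproteinases, went from 5.29, 5.65, 5.80, 5.91 and 6.45 to 10.17, 9.26, 9.75, 9.43 and 8.82 (3.66 ± 0.35 SE), the macrophage elastase *Mmp12* rose by 2.76 ± 0.43 and *Mmp14* by 1.91 ± 0.15. Of 23 genes of the TGF-beta pathway and of epithelial-to-mesenchymal transition 6 rose, including the ligands *Tgfb1* (1.2 ± 0.19) and *Tgfb3* (1.19 ± 0.15), the receptor *Tgfbr1* (1.2 ± 0.15) and the activin subunit *Inhba* (1.23 ± 0.19). The vasoconstrictor *Edn1*, endothelin 1, rose by 1.86 ± 0.24, and *Kl*, the co-receptor of the phosphate hormone FGF23, fell by 1.58 ± 0.19.

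Markers of neighbouring tissues varied between arrays. *Ucp1* of brown fat had signals of 3.75, 3.78, 4.00, 6.19 and 4.37 with water and 9.14, 4.54, 4.17, 4.16 and 10.74 with AAI. It was thus high in AAI replicates 1 and 5 and raised in water replicate 4, and neither *Ucp1* nor *Adipoq*, which followed the same arrays (6.66 and 8.50, 6.06 in water replicate 4, and 4.02 to 4.90 elsewhere), was called. *Fabp4*, a fatty acid binder of fat cells and vessels, was the member called of 6 fat cell markers (1.46 ± 0.53, adjusted p = 0.0392), and it was highest in the same AAI arrays (12.30 and 12.79). It was not called without AAI replicate 1 or 5, without control replicate 1, 2, 3 or 5, or without the 3 arrays with raised fat cell markers. The mean over the 6 markers ran from 5.34 to 8.51 with AAI and from 5.29 to 6.42 with water. Whether this tissue contributed to single results, such as the high *Cd36* and *Ehhadh* of AAI replicate 5, was not tested. None of 8 adrenal markers and 6 urothelium markers was called. Urothelium markers had mean signals of 4.69 to 5.62 with AAI and 4.59 to 5.13 with water, highest in AAI replicate 4 and, of the controls, in replicate 1.

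**Figure D5:**
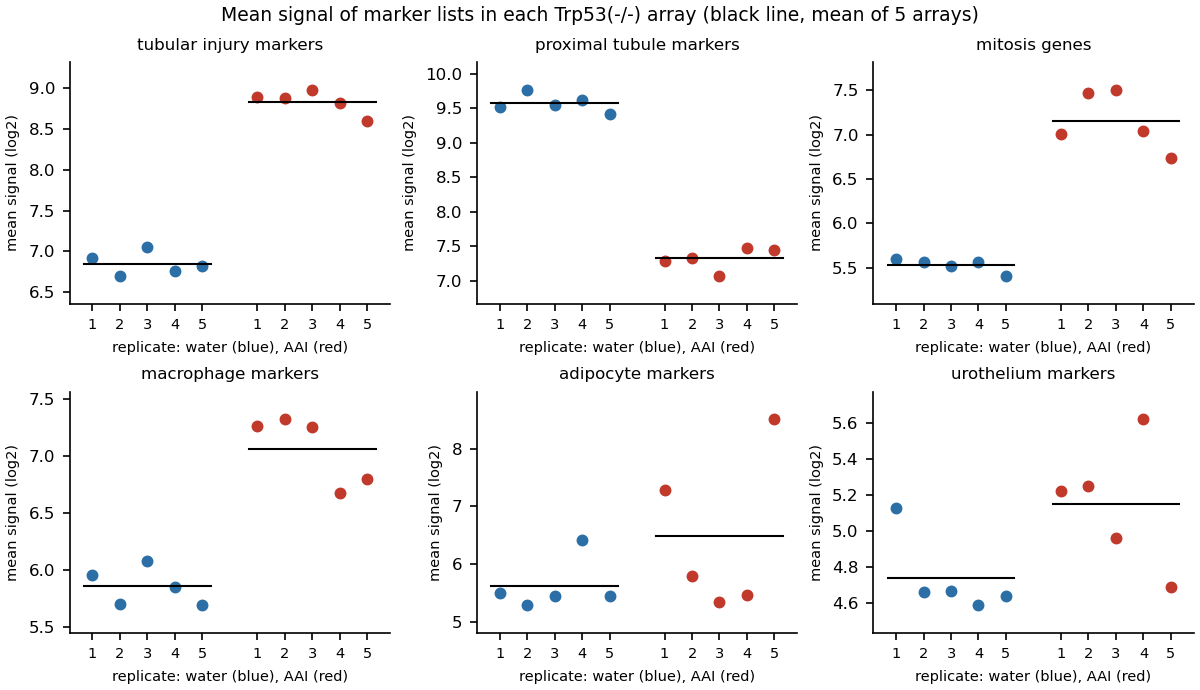
Mean log2 signal over the measured members of 6 marker lists in each *Trp53(-/-)* array, water in blue and AAI in red, with the mean of 5 arrays as a black line. Injury markers, proximal tubule markers, mitosis genes and macrophage markers separate the groups without overlap, while fat cell markers are high in AAI replicates 1 and 5 (7.29 and 8.51) and urothelium markers overlap.

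A few of the strongest changes belonged to genes of no list. *Dnase1*, a secreted nuclease, went from 10.16, 10.68, 9.67, 10.52 and 9.13 to 6.01, 6.33, 5.24, 6.43 and 6.07 (-4.02 ± 0.38 SE) and *Hsd3b2*, a steroid dehydrogenase, fell by 3.64 ± 0.30. *Gm6300* fell by 4.23 ± 0.40, and *Vmn1r18* and *Vmn1r20*, named as pheromone receptors, by 3.75 ± 0.29 and 3.66 ± 0.29. These 3 belong to families of near-identical genes, and their signals may include related transcripts. Among clusters without a symbol here, TC0600001508.mm.2 rose by 3.22 ± 0.31 and TC0300002553.mm.2 fell by 3.67 ± 0.25.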

How the data were processed

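Kidney RNA from 30 mice (6 groups of 5) was measured, with 1 Clariom S mouse array for each animal. The authors summarised the arrays with Robust Multi-array Average (RMA) in the Transcriptome Analysis Console, for which no version is given in the sources used here, and deposited log2 signals per transcript cluster. Background correction and normalisation between arrays, which bring the arrays to nearly the same signal distribution, were thus already done. The 22206 clusters ranged from 1.92 to 14.04, with array medians of 5.88 to 5.99.

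Symbols came from the platform annotation. Of the clusters 19572 had 1 symbol, 0 had several and 2634 none. Where clusters shared a symbol the brightest was kept, which left out 67. R 4.3.3 with limma 3.58.1 fitted 1 mean per group over all 30 arrays (24 residual and 7.21 prior degrees of freedom, no batch term). All p-values are two-sided and adjusted by Benjamini-Hochberg over 22139 clusters. Of 1108 genes on 58 lists 1016 were measured. Members and lists were chosen with earlier results of these data known. Lists are described by counts and medians without a test.

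Named genes were the 15 largest increases and decreases among called genes without overlap, up to 4 called members per list, the 15 smallest adjusted p of the difference between genotypes, all members of the p53 target, CDK inhibitor, G1 and AAI enzyme lists, and defining markers of lists without a call. *Umod*, *Slc12a3*, *Ucp1*, *Adipoq*, *Hp*, *Cdk1*, *Top2a*, *Pola1*, *Espl1*, *Anxa13*, *Clu*, *Krt18*, *Tnfrsf12a*, *Vim*, *Plaur*, *Sox9*, *Sgo1*, *Hirip3*, *Wdr76*, *Psmc3ip* and *Idh3a* were chosen after their values were seen. So were *Gclc*, *Abcc1*, *Col1a1*, *Col1a2*, *Col3a1*, *Bcl2*, *Mcl1*, *Bak1*, *Bid*, *Jun*, *Fos*, *Junb* and *Fosl2*. The fit was also run on simulated data with known changes, whose spread was taken from the real groups. Alternatives were other normalisations, filters, priors, thresholds and array weights, the plain test of the methods, a block for replicate number, a term for cDNA batch, and each array left out.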

Additional observations from a re-analysis of the deposited data

Results flagged for a closer look

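In 15 genes, the named ones with the smallest adjusted p, the interaction test of limma separated the AAI effects of *Trp53(-/-)* and *Trp53(+/+)* kidneys. On the log2 scale the effect without p53 minus the effect with it was -3.38 for *1700007K13Rik*, -2.88 for *Ces2e*, -2.42 for *Trp53inp1*, -2.37 for *Eda2r*, -2.07 for *Cox6b2*, -2.05 for *Olfr1318*, -2.0 for *Ccng1* and -1.97 for *Zfp365*. It was -1.6 for *Mdm2*, -1.55 for *Mmp2*, -1.2 for *Tnfrsf10b*, -1.11 for *Arap2* and for *Perp*, -1.02 for *Inka2* and -1.0 for *Ercc5*. All 15 were thus more negative without p53.

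Single arrays stood apart from the other 4 of their group by Dixon's test in 28 of 656 groups examined, and chance alone gives about 1 in 20. Of these, 11 concerned control replicate 1. Its log2 signals were 7.36 for *Brip1*, 8.22 for *Cd2ap*, 5.3 for *Dbh*, 9.5 for *Flna*, 7.6 for *Kmo*, 5.36 for *Krt5*, 6.14 for *Nfkbiz*, 6.29 for *Nqo1*, 7.3 for *Polk*, 7.44 for *Tgfbr1* and 4.16 for *Upk3a*. Among the other controls, replicate 2 stood apart for *Plk2* (5.53), *Thbs1* (6.72) and *Tigar* (3.87), and replicate 4 for *Ercc3* (6.63), *Fcrla* (3.05) and *Gm6300* (7.3).

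With AAI, replicate 5 stood apart for *Birc3* (7.53), *Rela* (8.81), *S100a8* (4.06), *Sprr1a* (8.5), *Uqcrc1* (9.21) and *Uqcrc2* (8.74). Replicate 3 did so for *Inhba* (7.4), *Pmaip1* (5.87) and *Sdhb* (8.83), and replicate 1 for *Flna* (11.63) and *Rag2* (4.95).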

How the results depend on the processing

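The counts of genes called in *Trp53(-/-)* kidneys stayed within 1.5 times of the main ones under all 22 alternatives (1312 to 1441 with 1 array left out, 1333 to 1493 otherwise). After centring each array on its median, 664 were higher and 673 lower, and the methods' plain test with Benjamini-Hochberg gave 716 and 617. The count of differences between genotypes depended more on the setting over 35 alternatives. It was 16 (0 more positive without p53) with only the arrays compared, 39 (33 more negative) after quantile normalisation, 35 (8 more positive) with a trended and robust prior and 20 with 2-fold required (3 more positive). It was 20 (3 more positive) without the 3 arrays with raised fat cell markers, an alternative chosen after seeing the data, and 28 were more negative with the batch term when *Trp53(+/+)* AAI array 4 is placed in batch 2. The causes were not tested. With 1 array left out it was 21 to 33, of which 3 to 7 were more positive and 18 to 28 more negative. Replicate numbers did not pair the samples, since correlations of same-numbered deviations ran from -0.106 to 0.056 and 0 of 5 pairs were best with their own number. With the replicate block 1368 genes were called and 14 differences passed (0 more positive). Of 7345 single-gene values over alternatives 7233 kept their call and direction, 105 lost the call, 7 gained it and 0 reversed. Of 158 named called genes 142 kept the call throughout, and of 116 list counts 99 stayed within 1.5 times. Array number, 5 per group, limits what small differences can show.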
